A study of Mus musculus with 18 samples.

Results

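The Tcf/Lef factors are the DNA-binding end of the Wnt pathway, and their 4 mouse genes are Tcf7l1 (the gene that the labels call Tcf3), Tcf7l2, Tcf7 and Lef1. Their probe sets were taken from the annotation of the array by gene symbol, which found 3 of the 17903 named genes, with 7 of 40508 probe sets: 2 for Tcf7l1, 3 for Tcf7l2 and 2 for Lef1. No probe set carried the name Tcf7 there, so Tcf7 is not analysed here. The study followed mouse cells on their way to induced pluripotent stem cells (iPSC), driven by OCK (Oct4, c-Myc and Klf4) or OSK (Oct4, Sox2 and Klf4), with Tcf3 present, deleted or depleted.

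The arrays fell into 7 groups. The partial OCK iPSC clone, which is Tcf3 wild type (wt) and stopped short of pluripotency, was treated with siTcf3 (2 arrays, siRNAs A and B) or with siCtrl (1 array), and was sampled on day 2. The established clones were OCK Tcf3 knockout (ko) iPSC (2 clones), OSK Tcf3 ko iPSC (2 clones) and OSK Tcf3 wt iPSC (1 clone). OCK reprogramming cultures of Tcf3 ko and of Tcf3 wt cells gave 1 array each on days 11, 15, 19, 22 and 26. The partial cells are 1 clone, and no OCK wt iPSC clone was among the arrays used here. Whether arrays of a group stem from separate cultures is not stated in the labels. The p-values therefore reflect only how much these arrays vary, and part of that may be technical. A lasting difference between the ko and wt cultures cannot be told apart from an effect of genotype.

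In the absence of a Wnt signal, Tcf/Lef proteins sit on target genes together with Groucho/Tle corepressors. When the signal arrives, beta-catenin enters the nucleus and binds them, and target genes such as Axin2 are switched on. Tcf7l1 is known mainly as a repressor and is the most prominent family member in mouse embryonic stem cells, where it dampens pluripotency genes. Lef1 and Tcf7 are known mainly as activators and are themselves Wnt targets in several tissues, and Tcf7l2 can act in both ways.

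Values are log2 RMA signal, the normalized summary of a probe set's brightness, and the deposited values have a floor at 5.64, below which no level is given. Both Tcf7l1 probe sets, 1436207_at and 1450117_at, and the Tcf7l2 probe set 1429428_at were above the floor on all 18 arrays. The Tcf7l2 probe set 1425229_a_at was above it on 14 arrays but never exceeded 6.72. The Lef1 probe set 1454734_at was above it on 9 arrays. Tcf7l2 1426639_a_at and Lef1 1421299_a_at were at the floor on all 18 arrays and could not be tested, so the probe sets of a gene disagreed for Tcf7l2 and Lef1. Below, the probe set with the highest mean is called the leading one: 1436207_at, 1429428_at and 1454734_at.

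The markers set the iPSC clones apart from the partial clone and the cultures. The mean log2 signal of 8 pluripotency markers lay between 12.33 and 12.55 in the 5 iPSC clones, between 8.15 and 8.44 in the partial clone and between 6.54 and 9.90 in the cultures, and Zfp42 was at the floor in the partial clone. By this mean the partial clone thus lay within the range of the cultures. Of the 8 markers, Pou5f1 (Oct4) is a factor of both sets and Sox2 of OSK. Pou5f1 read at least 10.32 on all 18 arrays. The mean of 8 fibroblast and mesenchymal markers was between 11.64 and 13.03 in the cultures, between 9.53 and 9.99 in the partial clone and between 7.31 and 8.74 in the iPSC clones. T lymphocytes, which are rich in Lef1 and Tcf7, had 6 of their 8 markers on the array. Their mean was between 5.80 and 5.96 on all arrays, near the floor, and Cd3g, Cd8a and Cd2 were at the floor throughout. Cd3e (6.07 to 6.74) and Cd4 (6.08 to 6.51) were above the floor on all 18 arrays, and Cd3d on 4.

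The promoters of the measured genes are shown because Tcf/Lef factors can act on the genes of their own family. Each runs from 250 bases before to 50 bases after an annotated start, from RefSeq (GRCm38.p6), and capitals mark a Tcf/Lef motif, CTTTGAT or CTTTGTT, searched on both strands. The only start of Tcf7l1 lies in chr6:72788996-72789295 (minus strand) and the downstream one of the 2 starts of Tcf7l2 in chr19:55895071-55895370 (plus strand). The first of 4 listed starts of Lef1 lies in chr3:131110047-131110346 (plus strand).
Tcf7l1: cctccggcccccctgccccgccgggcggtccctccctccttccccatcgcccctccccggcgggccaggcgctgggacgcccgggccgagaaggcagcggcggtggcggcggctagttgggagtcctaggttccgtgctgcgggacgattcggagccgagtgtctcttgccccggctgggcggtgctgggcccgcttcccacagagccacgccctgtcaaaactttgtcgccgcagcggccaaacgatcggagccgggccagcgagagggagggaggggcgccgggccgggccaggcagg
Tcf7l2, downstream start: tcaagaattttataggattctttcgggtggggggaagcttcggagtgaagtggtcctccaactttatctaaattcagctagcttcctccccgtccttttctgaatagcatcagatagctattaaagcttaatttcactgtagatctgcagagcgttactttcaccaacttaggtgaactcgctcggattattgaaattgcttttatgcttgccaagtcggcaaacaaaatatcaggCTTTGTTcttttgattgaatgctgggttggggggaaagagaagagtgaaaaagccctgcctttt
Lef1, first start: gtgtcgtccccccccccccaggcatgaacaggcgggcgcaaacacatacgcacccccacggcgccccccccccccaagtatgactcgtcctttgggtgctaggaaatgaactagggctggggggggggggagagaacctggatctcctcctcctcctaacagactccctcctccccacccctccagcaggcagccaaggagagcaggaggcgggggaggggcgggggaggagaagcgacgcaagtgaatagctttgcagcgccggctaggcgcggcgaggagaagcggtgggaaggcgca
One motif, CTTTGTT, was found, 14 bases before the downstream start of Tcf7l2. None lay in the other window of Tcf7l2, in the window of Tcf7l1 or in any of the 4 of Lef1. Of 32851 promoter windows of the same length, 9.3% held at least 1 of the motifs. A match of letters is a description, not a binding site.

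**Figure D1:**
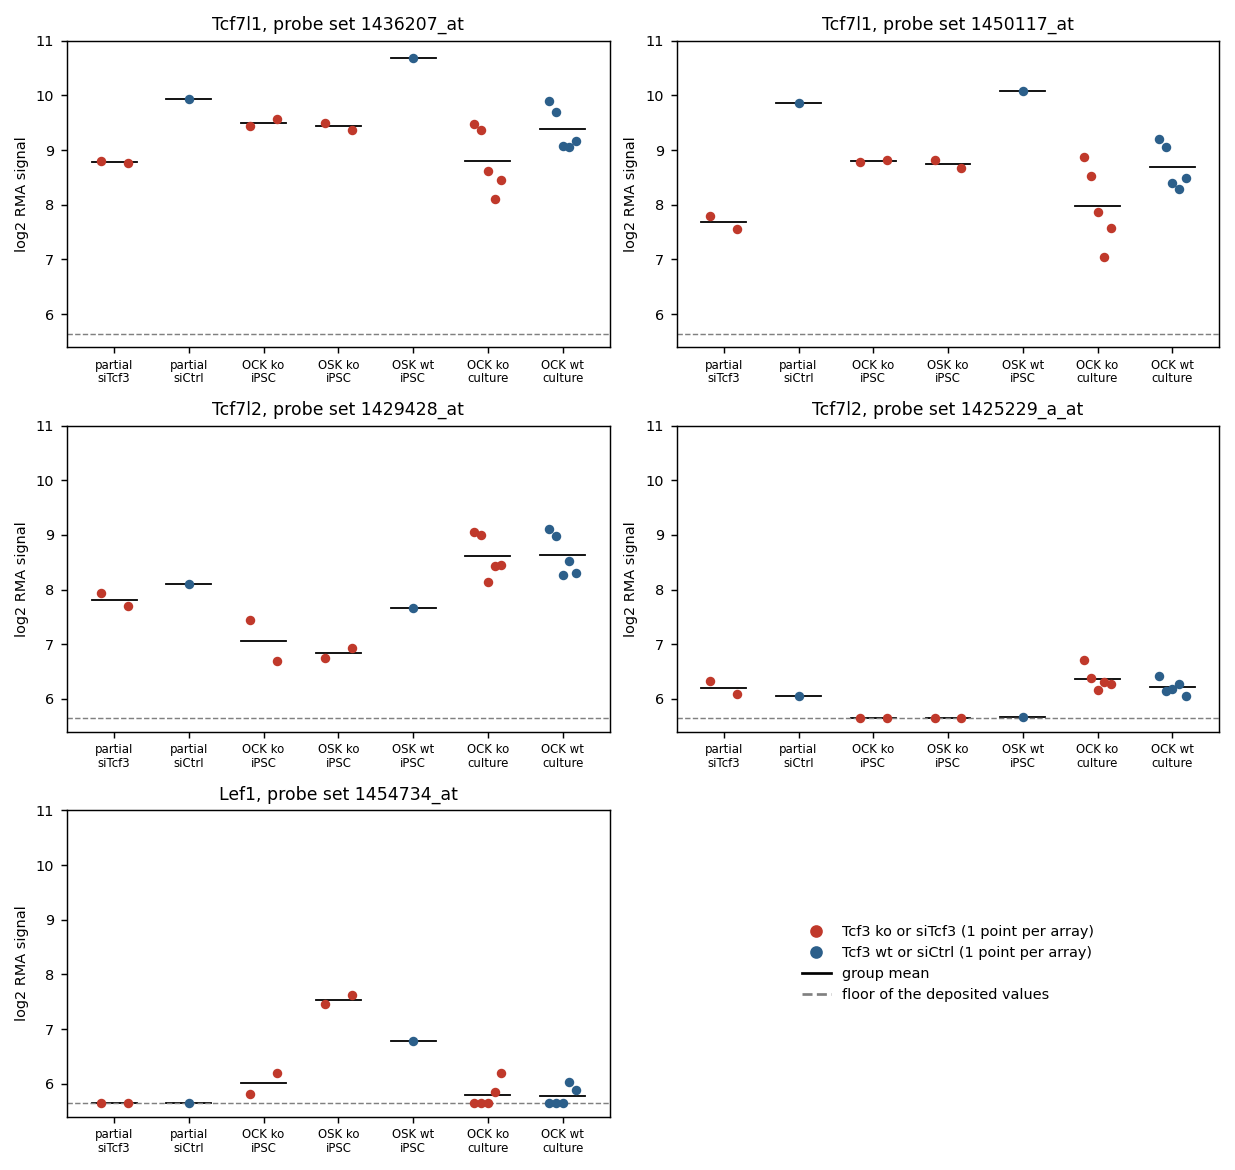
Log2 RMA signal (y axis) of the 5 probe sets that were above the floor on at least 1 array, by group (x axis), with 1 point per array, a black line at the group mean and a dashed line at the floor of 5.64. Culture points run from day 11 (left) to day 26 (right). Tcf7l1 is highest in the OSK wt clone, Tcf7l2 in the cultures and Lef1 in the OSK ko clones.

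Tcf7l1 was lower in the OSK ko clones and on the siTcf3 arrays than in their controls, but its signal stayed above the floor on every array. The sources used here do not give where its probe sets lie relative to the deleted part, so remaining signal in ko cells checks nothing about the labels. In OSK iPSC the leading probe set read 9.49 and 9.37 in the ko clones, against 10.68 in the wt clone. The second probe set read 8.82 and 8.67 in the ko clones, against 10.07 in the wt clone. Both ko clones lay below the wt clone for either probe set, and how often this holds across all probe sets was not counted. The log2 difference was -1.25 ± 0.12 (SE) for the leading and -1.32 ± 0.14 for the second probe set, and both fell by limma's test (adjusted p = 0.0326 and 0.0378). On a linear scale the ko clones kept 42.0% and 39.9% of the wt signal. Of all probe sets tested 0.31% were called. Without OSK ko clone 1 or clone 2 neither call held (adjusted p between 0.233 and 0.294), nor did they in a fit of the 5 iPSC arrays (0.193 for both) or with limma's plain prior (0.0513 and 0.0736). The second probe set also lost its call among probe sets above the floor on every array (0.0566).

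Tcf7l1 was close in the OCK ko and OSK ko clones. The leading probe set read 9.45 and 9.56 in the OCK ko clones, against 9.49 and 9.37 in the OSK ko clones, so the groups overlapped. The difference was 0.071 ± 0.099 with a 95% interval from -0.17 to 0.31, and that of the second probe set was 0.052 ± 0.12 (-0.23 to 0.33). Neither passed by limma (adjusted p = 0.726 and 0.845, background 7.57%).

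After siRNA in the partial clone the 2 probe sets gave unequal changes. The leading one read 8.80 with siRNA A and 8.77 with siRNA B, against 9.93 with siCtrl. The second one read 7.79 and 7.56 with siRNAs A and B, against 9.86 with siCtrl. Both siRNAs were below the control in both cases, and how often this holds across all probe sets was not counted. The second probe set fell by 2.18 ± 0.14 on the log2 scale (limma adjusted p = 0.0378) and kept 22% of the control signal. The leading one differed by -1.15 ± 0.12 and kept 45.2%, with an adjusted p of 0.0661. It passed with 1 probe set per gene (0.0495) and with limma's plain prior (0.0412). The background of calls was 0.0639%. Each siRNA and the control had 1 array, and the 2 siRNAs were averaged as 1 group. The SE and p thus hold no repeat of either siRNA or of the control, and they also draw on the spread between ko clones. The call of the second probe set was lost without siRNA A (0.182), without siRNA B (0.238), in a fit of the 3 partial clone arrays (0.111) and among probe sets above the floor on every array (0.0614).

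Levels of different probe sets cannot be compared, but the gap between them can be followed across arrays. The second minus the leading Tcf7l1 probe set was -1.01 and -1.21 with siRNAs A and B, against -0.070 with siCtrl. It was -0.67 and -0.70 in the OSK ko clones, against -0.61 in the OSK wt clone, and -0.67 and -0.74 in the OCK ko clones. In the cultures of days 11 to 26 it was -0.61, -0.84, -0.75, -1.06 and -0.86 in ko, against -0.69, -0.65, -0.67, -0.77 and -0.68 in wt. The siCtrl array thus had the narrowest gap of all 18 arrays and the siRNA B array the widest. The test of whether the siRNA change differed from the OSK ko change gave -0.86 ± 0.20 for the second probe set (limma adjusted p = 0.271) and 0.11 ± 0.17 for the leading one (0.901). No probe set passed that test (0% called by limma, 0 also with its plain prior, and 2686 at an unadjusted p under 0.05).

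**Figure D2:**
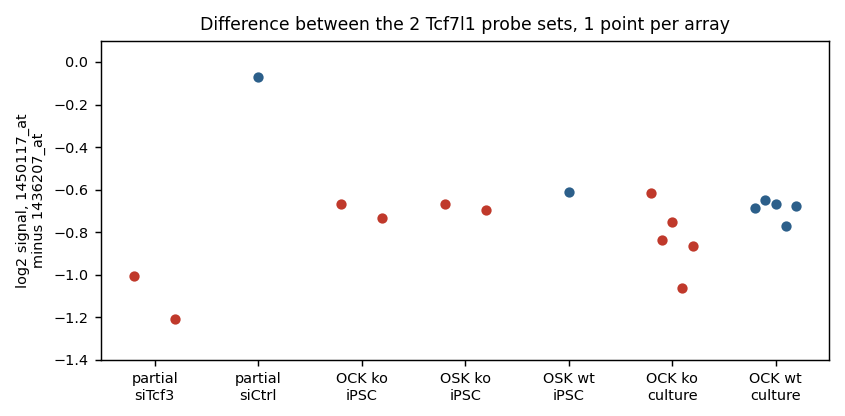
Log2 signal of the Tcf7l1 probe set 1450117_at minus that of 1436207_at (y axis), 1 point per array, by group (x axis); culture points run from day 11 to day 26. The siCtrl array lies at -0.070, while the other 17 arrays lie between -1.21 and -0.61.

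In the OCK cultures Tcf7l1 declined over time in both genotypes and was lower in ko on every day. On days 11, 15, 19, 22 and 26 the leading probe set read 9.48, 9.37, 8.61, 8.10 and 8.44 in ko, against 9.90, 9.70, 9.07, 9.06 and 9.17 in wt. The ko signal was 74.9%, 79.4%, 72.8%, 51.3% and 60.5% of the wt signal of the same day. For the second probe set these shares were 78.9%, 69.8%, 68.9%, 42.0% and 53.1%. The ko arrays lay below the wt arrays of their own day on all 5 days, although the ranges of the genotypes overlapped across days. How many of all probe sets do so was not counted. Days stand in for replicates in the ko minus wt test, which takes the 5 daily differences as independent. The ko minus wt difference was -0.58 ± 0.10 for the leading and -0.71 ± 0.13 for the second probe set (5 arrays per genotype, limma unadjusted p = 0.000643 and 0.000939). Neither passed over all probe sets (limma adjusted p = 1 for both), where 0% were called by limma, 0 also with its plain prior, and 903 had an unadjusted p under 0.05.

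The change per day over both genotypes was -0.074 ± 0.016 for the leading and -0.084 ± 0.018 for the second Tcf7l1 probe set, and both fell by limma (adjusted p = 0.0117 and 0.0126, background 30.5%). Fitted to the 5 means of the days, so that arrays of 1 day count once, neither passed (0.0801 and 0.0793). Nor did the fit without day 11 (0.163 and 0.178) or without day 15 (0.0530 and 0.0577). The slope of the leading probe set was -0.090 ± 0.022 per day in ko and -0.057 ± 0.022 in wt. The difference of the slopes was -0.032 ± 0.031 for it and -0.049 ± 0.036 for the second probe set, with no call by limma (adjusted p = 1 for both). No probe set passed there (0% called, 0 also with the plain prior, and 371 at an unadjusted p under 0.05).

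**Figure D3:**
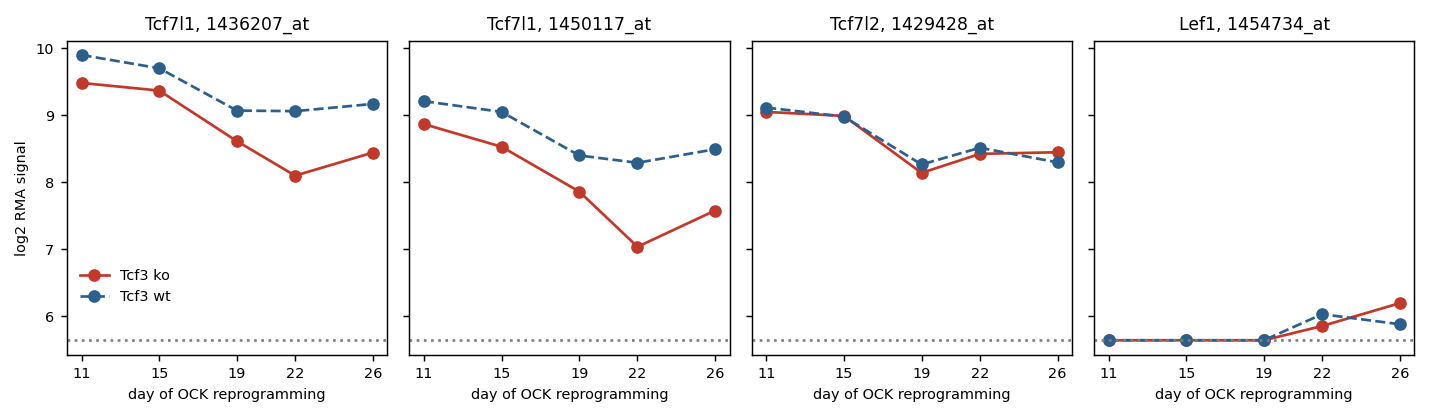
Log2 RMA signal (y axis) by day of OCK reprogramming (x axis) for 4 probe sets, with Tcf3 ko as solid and Tcf3 wt as dashed lines, 1 array per point; the dotted line is the floor. The Tcf7l1 lines run apart on all 5 days, those of Tcf7l2 lie within 0.15 of each other, and Lef1 leaves the floor on day 22.

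Between cell states Tcf7l1 differed by probe set. The leading one was lower in the partial clone with siCtrl (9.93) than in the OSK wt clone (10.68), by a log2 difference of -0.75 ± 0.14 (limma adjusted p = 0.00621, background 43.4%). Each side of this comparison is 1 array, so its SE and p rest wholly on the spread in other groups, for every gene below as well. The second one read 9.86 in the partial clone and 10.07 in the OSK wt clone, a difference of -0.21 ± 0.17 that did not pass (0.345). The OCK ko clones lay above the mean of the OCK ko cultures by 0.70 ± 0.38 and 0.82 ± 0.46 in the leading and second probe sets, and neither passed (adjusted p = 0.192 and 0.201, background 36.8%). By mean level of the leading probe set the order was OSK wt clone, siCtrl, OCK ko clones, OSK ko clones, wt cultures, ko cultures and siTcf3. The OCK ko and OSK ko clones overlapped, and the wt cultures spanned both. The siTcf3 arrays lay within the range of the ko cultures. The other neighbours were either single arrays or, for the ko and wt cultures, lower in ko on each day.

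Tcf7l2 lay close together in ko and wt cultures, and it was lower in the iPSC clones than in the cultures. On days 11, 15, 19, 22 and 26 its leading probe set read 9.05, 8.99, 8.14, 8.43 and 8.45 in ko, against 9.12, 8.98, 8.27, 8.52 and 8.30 in wt. The ko array was the lower one on days 11, 19 and 22 and the higher one on days 15 and 26. The ko minus wt difference was -0.024 ± 0.064, with a 95% interval from -0.17 to 0.13 (limma adjusted p = 1). The second probe set, near the floor, read 6.72, 6.38, 6.16, 6.31 and 6.27 in ko, against 6.42, 6.15, 6.18, 6.28 and 6.06 in wt. Its difference was 0.15 ± 0.069 (adjusted p = 1).

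Tcf7l2 also declined over time. Its leading probe set was lowest on day 19 in both genotypes, while that of Tcf7l1 was lowest on day 22. The change per day was -0.053 ± 0.015 for the leading probe set, which fell by limma (adjusted p = 0.0275), and -0.022 ± 0.0090 for 1425229_a_at, which did not pass (0.109) except with median centring (0.0378). The slopes of the leading probe set were -0.049 ± 0.021 in ko and -0.058 ± 0.021 in wt, and their difference was 0.0090 ± 0.030 (adjusted p = 1). The call was lost with the fit to the means of the days (0.129) and without day 11 (0.269), day 15 (0.103) or day 22 (0.0612). Over the 10 culture arrays the leading probe sets of Tcf7l1 and Tcf7l2 correlated with Pearson's r = 0.746, as a description of arrays that share a time course. Fibroblast markers moved with this decline, with a mean of 13.03, 12.95, 12.18, 11.64 and 12.21 in ko, against 13.01, 12.85, 12.23, 12.06 and 12.28 in wt on the 5 days. Macrophage markers averaged 7.76, 8.49, 7.25, 6.55 and 7.21 in ko, against 7.76, 8.33, 7.19, 6.80 and 6.86 in wt. Keratinocyte markers averaged 8.55, 7.87, 7.88, 6.66 and 7.44 in ko, against 8.75, 7.49, 8.40, 7.80 and 7.03 in wt. Both lists were thus lower late than on day 11 in both genotypes, with keratinocyte markers lower in ko on day 22. Pluripotency markers went the other way, at 6.54, 6.59, 7.70, 8.94 and 9.90 in ko, against 6.56, 7.30, 7.16, 8.61 and 8.73 in wt. Neuron markers averaged 7.15 in ko on day 26, against 10.02 in wt. The part of these lists in the changes of Tcf7l1, Tcf7l2 and Lef1 over time and by genotype was not tested, and fewer cells of a type and less RNA per cell cannot be told apart in such bulk samples.

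Among clones Tcf7l2 was lower than in the cultures. The leading probe set read 7.44 and 6.69 in the OCK ko clones, against 8.14 to 9.05 with a median of 8.45 in the OCK ko cultures. All 5 iPSC clones, 6.69 to 7.67, lay below all 10 cultures, 8.14 to 9.12. How many other probe sets part in this way was not counted. The difference between OCK ko clones and cultures was -1.55 ± 0.31, lower in the clones by limma (adjusted p = 0.00687, background 36.8%). It lost its call without OCK ko clone 2, which left 1 clone in the group. The probe set 1425229_a_at was at the floor in both OCK ko clones, against 6.16 to 6.72 in the ko cultures, so its difference of -0.72 is an upper bound (adjusted p = 0.0221). Its call was lost without OCK ko clone 1 (0.106), clone 2 (0.101) or day 11 (0.0535). The fibroblast marker mean was 7.31 and 8.74 in OCK ko clones 1 and 2, against 11.64 to 13.03 in the ko cultures, and its part was not tested.

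The other contrasts of Tcf7l2 did not pass. Its leading probe set read 6.74 and 6.94 in the OSK ko clones, against 7.67 in the OSK wt clone, a difference of -0.83 ± 0.30 (limma adjusted p = 0.379). Both ko clones were below the wt clone, the same direction as for Tcf7l1. OCK ko minus OSK ko clones gave 0.22 ± 0.25 (0.645), and without OCK ko clone 1 the difference turned to -0.15 (0.544), while without clone 2 it was 0.60 and passed (0.0392). With siRNAs A and B it read 7.94 and 7.69, against 8.09 with siCtrl, a difference of -0.28 ± 0.30 (0.778). The partial clone with siCtrl differed from the OSK wt clone by 0.42 ± 0.35 (0.372). By mean level the order was wt cultures, ko cultures, siCtrl, siTcf3, OSK wt clone, OCK ko clones and OSK ko clones. The wt and ko cultures overlapped, as did the OCK ko and OSK ko clones. The siCtrl array lay just below all ko cultures and above both siTcf3 arrays, and the OSK wt clone lay below both siTcf3 arrays and above both OCK ko clones. These single arrays were not tested against the cultures or the OCK ko clones.

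Lef1 was highest in the OSK clones, while the OCK ko clones lay near the cultures of days 22 and 26. The probe set 1454734_at read 5.82 and 6.20 in the OCK ko clones, against 7.46 and 7.62 in the OSK ko clones. Lef1 was lower in OCK ko clones by a log2 difference of -1.53 ± 0.14 (limma adjusted p = 0.00664, background 7.57%). In the shared fit of clones the SE of Lef1 also draws on the siTcf3 arrays, which were at the floor and show no spread. Both groups of ko clones lack Tcf3, so the factor set and whatever else separates these clones cannot be told apart. The call was lost without OSK ko clone 1 (0.0677) or clone 2 (0.0865), and held without OCK ko clone 1 (0.00402) or clone 2 (0.00120), in a fit of the 5 iPSC arrays (0.0401) and with clone number as a replicate block (0.0388).

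Within OSK clones Lef1 was the member whose signal was higher without Tcf3. The 2 ko clones read 7.46 and 7.62, against 6.78 in the wt clone. The difference was 0.75 ± 0.18 with a 95% interval from 0.33 to 1.18, but it did not pass over all probe sets (limma adjusted p = 0.178, unadjusted p = 0.00478). After siRNA no such value could be had, since Lef1 was at the floor on both siTcf3 arrays and on the siCtrl array. The siRNA change minus the OSK ko change, -0.75 ± 0.25, did not pass either (limma adjusted p = 0.374). Because of the floor this value is only the OSK ko change with its sign turned, so it tells nothing about the siRNA.

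In the partial clone with siCtrl Lef1 was at the floor, against 6.78 in the OSK wt clone, so the difference of -1.14 is an upper bound (limma adjusted p = 0.00560). This rests on 1 array a group and a spread taken from other groups. In the cultures Lef1 was at the floor on days 11, 15 and 19 in both genotypes. On days 22 and 26 it read 5.86 and 6.20 in ko, against 6.03 and 5.88 in wt, so ko was lower on day 22 and higher on day 26. The ko minus wt difference was 0.028 ± 0.079 and the change per day 0.029 ± 0.011, and neither passed (adjusted p = 1 and 0.0775). With limma's plain prior the change per day passed (0.0398). On days 11, 15 and 19 the floor set both genotypes to the same value. The ko minus wt test thus cannot decide whether Lef1 differed by genotype, and the floor also shapes the change per day. The OCK ko clones minus the OCK ko cultures gave 0.21 ± 0.20, which did not pass (0.468). By mean level the order was OSK ko clones, OSK wt clone, OCK ko clones, ko cultures and wt cultures, with the partial clone at the floor. The T lymphocyte marker mean was 5.89 and 5.87 in OSK ko clones 1 and 2, against 5.93 in the OSK wt clone, and Cd3g, Cd8a and Cd2 were at the floor in both, while Cd3e and Cd4 were above it.

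**Figure D4:**
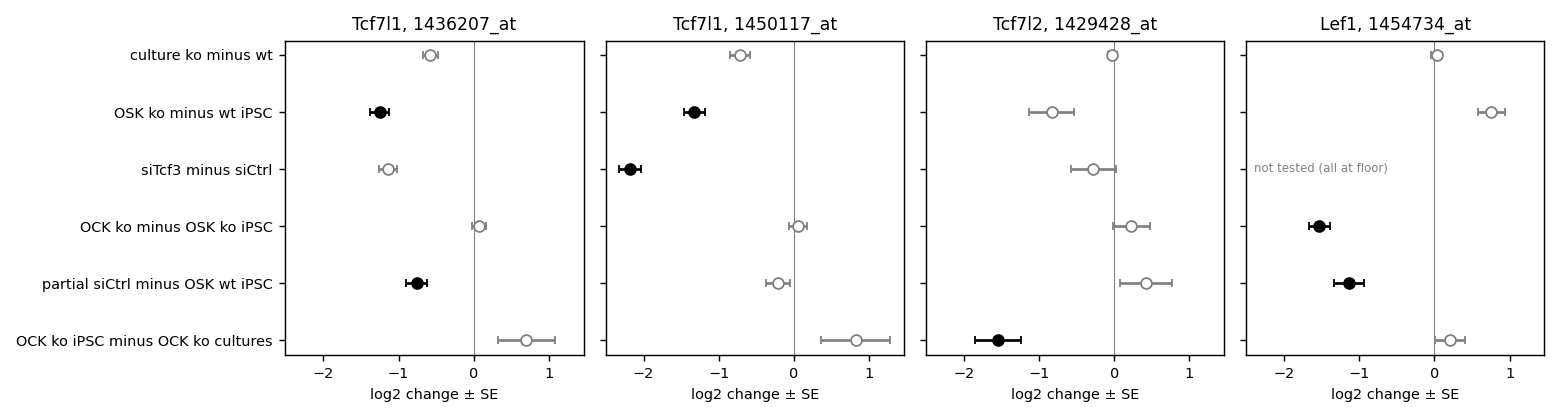
Log2 change ± SE (x axis) of 4 probe sets in 6 comparisons (rows), each named as the first group minus the second; filled points passed limma's test over all probe sets and open points did not. Filled points are the OSK changes of both Tcf7l1 probe sets, the siRNA change of 1450117_at, the low Lef1 of the OCK ko and partial clones, the low Tcf7l2 of the OCK ko clones, and the leading Tcf7l1 probe set of the partial clone. For Lef1 in the partial clone the value is an upper bound.

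The balance between paralogs was followed as unequal change. On each day the ko minus wt difference of Tcf7l1 was subtracted from that of a paralog, by leading probe sets. Tcf7l2 lay above Tcf7l1 in this measure on 5 of 5 days, by 0.55 ± 0.29 on the log2 scale (SD, n = 5 days, range 0.33 to 0.88). An exact two-sided sign-flip permutation test over the 5 days gave p = 0.0625, which is the smallest p that 5 days allow. Tcf7l1 is the deleted gene, and its own ko minus wt difference was -0.58, beside -0.024 for Tcf7l2. A positive sign on each day was thus largely set in advance by the deletion. The test also takes the 5 days of a time course as independent. It therefore cannot decide whether the balance of paralogs changed, and the measure mainly restates the lower Tcf7l1 signal in ko. Lef1 was at the floor in both genotypes on 3 of these days, where the measure would hold no Lef1 level, so none is given for it.

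Cofactors of the Tcf/Lef proteins were read from a list of 29 symbols, 27 of them measured. Ctnnb1, the gene of beta-catenin, did not pass in any of the 9 comparisons and differed by 0.010 ± 0.059 between ko and wt cultures and by -0.044 ± 0.11 between OSK ko and wt clones. Over the time course 7 of 26 tested cofactors rose and 2 fell by limma. This share, 34.6%, lies beside 34.7% of all 13428 genes tested, and the median change per day was 0.0060 against -0.0010 for all genes. The corepressor genes Tle4 (0.12 ± 0.021 per day) and Ctbp2 (0.097 ± 0.015) and the kinase gene Nlk (0.098 ± 0.015), whose product phosphorylates Tcf/Lef proteins, rose. Hbp1 (-0.050 ± 0.013), a repressor of Wnt targets, and Tgfb1i1 (-0.10 ± 0.023), a focal adhesion protein, fell. In the OCK ko against OSK ko clones 1 of 26 cofactors fell, Tle2, which was at the floor in the OCK ko clones, so that its difference of -0.65 is an upper bound (adjusted p = 0.0348). In ko against wt cultures, in OSK ko against wt clones and after siRNA, 0 cofactors passed by limma, with 0, 4 and 4 at an unadjusted p under 0.05. Their medians were -0.025, 0.0070 and -0.13, beside 0.013, 0.011 and -0.0020 for all genes.

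Between cell states 5 of 25 cofactors rose and 4 fell in the partial clone with siCtrl against the OSK wt clone (36.0%, against 47.2% of all genes). The kinase gene Hipk2 was higher by 2.32 ± 0.21 and Bcl9, which ties beta-catenin to Pygo proteins, by 1.13 ± 0.19. The deacetylase gene Hdac1 was lower, at -1.37 ± 0.15, and so was Kdm1a, a histone demethylase gene, at -1.08 ± 0.18. In the OCK ko clones against the OCK ko cultures 4 of 26 rose and 5 fell (34.6%, against 41.5%). There Hdac1 was higher by 1.37 ± 0.20, and Hipk2 was lower, at -2.59 ± 0.21.

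Genes that beta-catenin and Tcf/Lef proteins are known to switch on gave few calls where Tcf3 was lost. Of 14 tested in OSK ko against wt clones, 1 rose by limma, which is 7.14% of them, beside 0.474% of all genes called. It was the homeobox gene Cdx1, at the floor in the wt clone and higher by at least 2.61 on the log2 scale in the ko clones (adjusted p = 0.0340). The other 13 did not pass, and 3 of the 14 had an unadjusted p under 0.05. Their median was 0.11, beside 0.011 for all genes. In OCK ko against OSK ko clones Axin2 (-0.67 ± 0.13), a feedback inhibitor of the pathway, and Cdx1 (-1.03 ± 0.21) fell, as Lef1 did. Their limma adjusted p was 0.0366 and 0.0405 (2 of 14, beside 8.83% of all genes). In OSK ko against wt clones Axin2 was higher in ko by 1.135 ± 0.163, which did not pass (limma adjusted p = 0.0726). Axin2 and Cdx1 thus had opposite signs in the OSK comparison and in OCK ko against OSK ko. Both comparisons use the OSK ko clones, so they are not independent. In ko against wt cultures and after siRNA 0 of 14 passed by limma (1 and 2 at an unadjusted p under 0.05), with medians of 0.014 and 0.023. Over the time course Myc, itself a factor of the OCK set, rose (0.11 ± 0.030 per day) and Sox9 (-0.087 ± 0.021) and Ephb3 (-0.071 ± 0.015) fell, which is 21.4% of 14, beside 34.7% of all genes. In the partial clone with siCtrl against the OSK wt clone 3 of 13 were higher and 4 lower (53.8%, beside 47.2% of all genes). In the OCK ko clones against the OCK ko cultures 5 of 16 were higher and 5 lower (62.5%, beside 41.5%).

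Of 10 genes known to be repressed by Tcf3 in embryonic stem cells, 0 passed in ko against wt cultures, in OSK ko against wt clones or after siRNA (9 tested there), by limma, with 0, 4 and 2 at an unadjusted p under 0.05. Their medians were 0.24, 0.093 and 0.019, beside 0.013, 0.011 and -0.0020 for all genes. Over the time course 6 of 10 rose, among them Klf2 (0.066 ± 0.020 per day) and Tdgf1 (0.23 ± 0.046), and Stat3 fell (-0.036 ± 0.011), beside 34.7% of all genes called. In the partial clone with siCtrl 8 of 10 were lower than in the OSK wt clone, such as Nanog (-6.76 ± 0.24), and Klf4 (1.63 ± 0.36) and Stat3 (0.75 ± 0.14) were higher, beside 47.2% of all genes called. Klf4 is itself a factor of both sets. In the OCK ko clones 8 of 10 were higher than in the OCK ko cultures and Stat3 was lower (-1.35 ± 0.23), beside 41.5%. Tcl1 was the only one that passed between OCK ko and OSK ko clones, and it was higher in OCK ko (1.63 ± 0.12). This is 10% of the list, near the 8.83% of all genes. For the siRNA change minus the OSK ko change, and for the slope difference, 0 members of any of the 3 lists passed by limma, with 5 of each list and 0 to 2 at an unadjusted p under 0.05.

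The genes whose pattern over the 10 culture arrays was most like that of Tcf7l1, among 11373 genes above the floor on all of them, were Maged1 and Nudt13 (Pearson's r = 0.963 each) and Vim (r = 0.955), the gene of the mesenchymal filament protein vimentin. For Tcf7l2 they were Pi4kb (r = 0.987), Stt3a (r = 0.985) and Hadha (r = 0.984). These arrays share days and cultures, so the values describe a common course. For Lef1, at the floor on 6 of the 10 arrays, none was sought.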

How the data were processed

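The 18 samples were each hybridised to 1 Affymetrix mouse array, in the groups that the labels give. Per the submitters' processing notes, the authors ran RMA, and the deposited numbers are its log2 signal for each probe set. No source used here names the RMA version. The deposited values end at a floor of 5.64 (the log2 of 50) on all arrays, and 44.9% to 46.6% of an array's values lie on it.

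Probe sets were named from the platform annotation: 31076 had 1 symbol, 636 had several and 8796 were not listed. A gene's leading probe set is the one with its highest mean across the 18 arrays. Tests were made with limma 3.58.1 in R 4.3.3 across all probe sets, with Benjamini-Hochberg adjustment over all of them and a threshold of 0.05. The prior variance came from probe sets above the floor on every array of a fit. A probe set with a floored array got at least that variance, and one at the floor on all compared arrays was not tested. The ko minus wt difference of the cultures was fitted with day as a block, since arrays of the same day deviated together (r between 0.631 and 0.9 across probe sets). The change per day and the slope difference were fitted without that block, so they take arrays of 1 day as independent. Clones and siRNA arrays shared 1 fit of 8 arrays, in which a group of 1 array is assumed to vary like the others. The code was tested on simulated data. All probe sets of the 4 genes are described. From the 3 gene lists only some of the members that passed are named. Ctnnb1, and Axin2 in OSK ko against wt clones, are given although they did not pass. The genes, lists and tests were chosen with earlier results of these data known. The balance of paralogs is given for Tcf7l2 alone, since no probe set is named Tcf7 and Lef1 was mostly at the floor. The alternatives were other variance priors, normalizations, floor filters, gene summaries, smaller fits, blocks, and leaving out each day, clone or siRNA. The number of arrays limits the precision.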

Additional observations from a re-analysis of the deposited data

How the results depend on the processing

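Results are counts of calls by limma over all probe sets, and the number of the 7 probe sets of the Tcf/Lef genes among them. For the change per day, 7616 calls became 4921 with 1 leading probe set per gene and 193 with a line through the day means, which left 0 of 3 member calls. For OSK ko minus wt, 71 calls became 19 with the plain prior, 13 among probe sets above the floor on every array and 0 in the fit of the 5 iPSC arrays, with 0, 1 and 0 of 2 member calls left, and 1 with 1 probe set per gene. For OCK ko minus OSK ko clones, 1771 calls became 225 with clone number as a replicate block and 400 in the 5-array fit, both with the Lef1 call kept, which could not be tested above the floor (0 member calls). The clone numbers did not pair the samples (r = -0.089 between deviations of same-numbered clones). For siTcf3 minus siCtrl, 15 calls became 94 with the plain prior (2 member calls), and 0 above the floor and in the 3-array fit (0 member calls each). For the partial clone against the OSK wt clone, 10322 became 6331 with 1 probe set per gene, and 1 of 2 member calls was left above the floor. For the OCK ko clones against the cultures, 9479 became 5886 with 1 probe set per gene, and 1 of 2 member calls was left there and above the floor.

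Leaving out 1 day, clone or siRNA gave between 0 and 7615 calls for the change per day (0 without day 11, 2623 without day 15; 0 to 3 members) and 0 for OSK ko minus wt and the siRNA (0 members). It gave 4 to 4777 for OCK ko minus OSK ko (0 to 2 members) and 4516 to 10852 for the OCK ko clones against the cultures (0 to 2 members). Signs turned for the ko minus wt difference of Tcf7l2 without day 19 (0.0010) and of Lef1 without day 26 (-0.044), and for their slope differences without day 26 (-0.0060 and -0.013). They also turned for OCK ko minus OSK ko clones of Tcf7l2 without OCK ko clone 1 (-0.15, against 0.60 without clone 2) and of the second Tcf7l1 probe set without OSK ko clone 2 (-0.022, against 0.13 without clone 1). None of the turned values was a call. The shift of Tcf7l2 relative to Tcf7l1 stayed between 0.48 and 0.61 with a day left out, an alternative chosen after seeing the data. That shift mainly restates the lower Tcf7l1 signal in ko, so its range says nothing on paralog balance. The causes were not tested, beyond fewer probe sets or arrays. Dropping the day block from ko minus wt, or adding it to the slope difference, changed no call (0 in each fit). Levels under the floor limit Lef1 and the second Tcf7l2 probe set.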
